A study of Homo sapiens with 6 samples.

Results

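Golgi mannosidases and glycosyltransferases, with the carbohydrate sulfotransferases that act beside them, were compared between 2 human colon cancer cell lines by Affymetrix arrays. The 79 genes were taken by symbol from the 11963 genes measured: alpha-mannosidases (MAN1 and MAN2), the MGAT, B3GALT, B4GALT and B3GNT families, GALNT, GCNT, FUT, the sialyltransferases (ST3GAL, ST6GAL, ST6GALNAC and ST8SIA) and CHST. They were covered by 127 of the 19065 probe sets with 1 gene symbol, and 33 of the 79 genes had several probe sets. GCNT1P1 is a pseudogene and the other 78 are protein-coding genes. The set is wider than the Golgi of its name, since MAN2B1 and MAN2B2 are lysosomal enzymes and MAN2C1 is cytosolic. The control line, HCT116, is an established epithelial line from a colorectal carcinoma and is labelled as poorly metastatic. The other line, E1, is labelled as metastatic and derived in vivo, and HCT116 is given as its cell line too. No treatment, time point or genetic change is given for either line, and the labels do not say how E1 was selected or whether it is 1 clone. Each line had 3 arrays of total RNA, which the labels do not tie to separate cultures, so the p-values rest on array-to-array spread that may be technical only.

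N-glycans reach the Golgi as high-mannose chains that alpha-mannosidases trim, after which MGAT enzymes start and branch the antennae that make a glycan hybrid or complex. Galactosyltransferases, B3GNT enzymes, fucosyltransferases and sialyltransferases then extend and cap those antennae, and sulfotransferases modify some of them. Mucin-type O-glycans are begun by GALNT enzymes, which attach N-acetylgalactosamine (GalNAc) to serine or threonine, and are branched by GCNT enzymes. In colon epithelium these pathways build the mucin glycans and the Lewis-type antigens at the cell surface.

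The E1 arrays differed in their ratios of 3' to 5' control signal, and RNA quality itself was not tested. Control probe sets for the 3' and 5' ends of GAPDH gave 3'-to-5' signal ratios between 0.774 and 0.811 for HCT116 and of 0.803 for E1 array 1, but of 34.1 and 71.9 for E1 arrays 2 and 3. Median signals lay between 61.8 and 66.5 for HCT116 and between 48.0 and 61.2 for E1. Of 12 colon epithelium markers 0 were called and 3 were lower at p under 0.05 before adjustment, against 9.7% of all genes. These were KRT8 (-2.91, SE 1.03; -0.48 with E1 array 1 alone), KRT18 (-0.40, SE 0.13; -0.32) and TFF3 (-0.57, SE 0.22; -0.59). Over the 12 markers, 5 log2 fold changes were positive and 7 negative. CDH1 was at 705 ± 227 (SD, n = 3) in HCT116 and, in E1, at 716 ± 211 (SD, n = 3), whereas the intestinal markers CDX2 and VIL1 did not exceed 22.5 on any array. Among leukocyte markers PTPRC did not exceed 15.7, CD3E read up to 131.7 in HCT116 and LAPTM5 was higher on every E1 array (0.57, SE 0.14, adjusted p = 0.182). Among endothelial markers CDH5 did not exceed 3.25, ENG read up to 74.3 in HCT116 and VWF was higher on every E1 array (0.36, SE 0.14, adjusted p = 0.315). VWF did not exceed 21.4, too dim for that order to be read. Their part in the results was not tested. Of the marker lists for leukocytes, fibroblasts and endothelium, with 11, 11 and 9 measured genes, 0 genes were called. Their summed signals ranged from 316 to 457, 439 to 494 and 164 to 179 over the HCT116 arrays and from 375 to 470, 330 to 492 and 121 to 199 over the E1 arrays.

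One gene of the 79 passed the test over all genes. MAN1A1 rose in E1, and 0 of the 79 fell. In RNA from whole cultures, a change in how many cells express a gene and a change in RNA per cell cannot be told apart. MAN1A1 encodes Golgi mannosidase IA, which removes mannose residues from high-mannose N-glycans. Calls required p below 0.05 after Benjamini-Hochberg adjustment across the 11963 genes of a limma fit of log2(signal + 32). Fold changes are E1 minus HCT116 on that scale, which shrinks differences at low signal. Over all genes 0.217% were called higher and 0.201% lower, beside 1 and 0 of the 79. At an unadjusted p under 0.05 the count was 5 higher and 5 lower of the 79, or 6.33% each way, against 5.29% and 9.7% of all genes. The 3 arrays of a line did not overlap those of the other for 8 members higher and 8 lower in E1, or 10.1% each, against 8.18% and 10.7% of all genes. A log2 fold change of at least 1 in size was reached by 4 of 79 genes, 5.06%, against 5.47% of all genes. The median log2 fold change was 0.05 over the 79 genes and -0.01 over all genes. Positive values were found for 48 of 79 members, against 5868 of all 11963 genes.

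**Figure D1:**
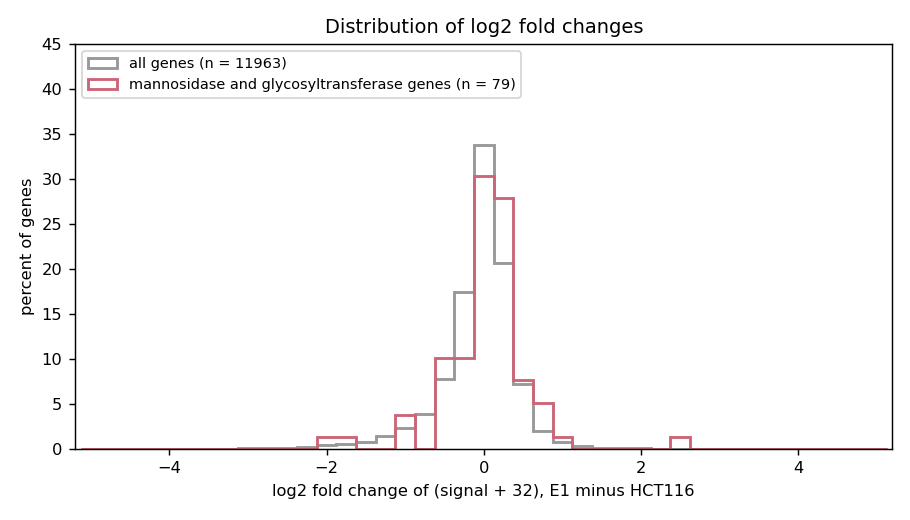
Distribution of log2 fold changes (E1 minus HCT116, x axis, bins of equal width) as the percent of genes in each bin (y axis), for all 11963 genes in grey and the 79 mannosidase and glycosyltransferase genes in red. Both distributions are centred near 0, and among the 79 genes MAN1A1 at 2.50 stands by itself to the right. All genes range from -4.97 to 4.92.

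The balance of the weaker differences depended on how arrays were scaled. Subtracting each array's median moved the median of all genes to 0.144, and the members then stood at 10 higher and 4 lower with p under 0.05 before adjustment, against 10.1% and 6.44% of all genes. Quantile normalization gave 16 higher and 4 lower, against 11.6% and 5.75% of all genes. Under both scalings MAN1A1 remained the one member called.

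Promoter sequences are shown for the members with the smallest p in each direction, MAN1A1 and GCNT3, to set their composition side by side. GCNT3 encodes the mucin-type branching enzyme that makes core 2 and core 4 O-glycans and is known from intestinal epithelium. Each run covers the 250 bases before a transcription start listed by RefSeq, 5′ to 3′ on the gene's strand, with capitals marking, on either strand, the GC box with the letters GGGCGG, the box with the letters CCAAT and the TATA box with the letters TATAAA, none of which overlapped another. The MAN1A1 window lies at chr6:119349762-119350011 on the minus strand and the GCNT3 window at chr15:59611533-59611782 on the plus strand, both in GRCh38.p14.
MAN1A1: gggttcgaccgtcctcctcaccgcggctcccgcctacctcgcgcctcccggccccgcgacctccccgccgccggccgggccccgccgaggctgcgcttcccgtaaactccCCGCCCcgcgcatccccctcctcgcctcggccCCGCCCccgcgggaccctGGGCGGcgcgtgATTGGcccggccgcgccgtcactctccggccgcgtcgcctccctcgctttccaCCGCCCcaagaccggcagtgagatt
GCNT3: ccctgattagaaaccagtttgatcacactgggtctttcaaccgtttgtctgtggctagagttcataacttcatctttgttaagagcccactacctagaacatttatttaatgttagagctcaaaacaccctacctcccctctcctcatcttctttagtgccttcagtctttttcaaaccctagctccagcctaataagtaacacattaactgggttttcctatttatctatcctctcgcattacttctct
The MAN1A1 window held 4 GC boxes and 1 CCAAT box, a G+C content of 78.4% and 40 CpG dinucleotides, 1.15 times the number its base composition gives. The GCNT3 window held 0 matches of any of the 3 motifs, a G+C content of 40.4% and 2 CpG dinucleotides, 0.230 times the number its composition gives. Windows were listed for 62 of the 79 genes, 105 windows in all. A GC box was found in 60.0% of them and in 53.7% of 22199 windows of 15843 protein-coding genes, a CCAAT box in 28.6% and 32.7%, and a TATA box in 0.952% and 9.0%. The median ratio of observed to composition-based CpG was 0.725 in the members' windows and 0.711 in those of protein-coding genes. These counts describe letters in a fixed window, and no binding or methylation was measured here.

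Among the 9 alpha-mannosidases, 1 rose and 8 did not pass. MAN1A1 read 183, 255 and 334 on HCT116 arrays 1 to 3 and 1563, 1171 and 2108 on E1 arrays 1 to 3. Every E1 array was above every HCT116 array, and the lowest E1 value was well above the highest HCT116 value. The means were 257 ± 75.5 (SD, n = 3) and 1614 ± 471 (SD, n = 3). In limma the log2 fold change was 2.50 (SE 0.28, adjusted p = 0.0327), or 5.67-fold on that scale. E1 array 1 alone, whose GAPDH ratio lay within the HCT116 range, gave 2.50, and E1 arrays 2 and 3 gave 2.51.

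The second MAN1A1 probe set showed the same direction. It read 67.3, 102 and 73.3 in HCT116 and 366, 321 and 707 in E1, again without overlap. Fitted over single probe sets, the MAN1A1 probe sets stood at 2.50 (adjusted p = 0.0252) and 2.07 (adjusted p = 0.0490), where 0.247% of all probe sets were called higher. MAN1A1 was called in 6 of 9 other settings that kept all arrays. It was not called with an offset of 100 (2.25, adjusted p = 0.0715), when _x_at and _s_at probe sets were dropped (2.50, adjusted p = 0.0511) or with the replicate number as a block (2.50, adjusted p = 0.137). Leaving out an array kept the value between 2.29 and 2.71 but ended the call in 5 of 6 cases. Without HCT116 array 1, 2 or 3 the adjusted p was 0.181, 0.142 and 0.126. Without E1 array 2 or 3 it was 0.0685 and 0.102, and without E1 array 1 it was 0.0106.

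The closest relatives of MAN1A1 also trim high-mannose N-glycans. MAN1A2, Golgi mannosidase IB, read 501, 371 and 331 in HCT116 and 527, 404 and 887 in E1, and the lines overlapped (0.51, SE 0.30, adjusted p = 0.487). Its 4 other, dimmer probe sets stood between -0.12 and 0.34. The one at 0.29 read 93.2, 80.7 and 62.6 against 93.4, 105 and 111, without overlap. The very dim one at 0.34 did not overlap either, but did not exceed 21.5, too dim for that order to be read. The others overlapped. MAN1C1, mannosidase IC, read 78.2, 73.6 and 73.8 in HCT116 and 86.7, 85.4 and 91.4 in E1. The MAN1C1 arrays did not overlap, but the difference was small (0.16, SE 0.12, adjusted p = 0.588), and its second, dimmer probe set stood at 0.45 (SE 0.12, adjusted p = 0.169 over probe sets). MAN1B1, which takes part in glycoprotein quality control, read 183, 199 and 144 in HCT116 and 184, 47.8 and 36.8 in E1. Only E1 arrays 2 and 3 were low for MAN1B1, so that the 6 arrays gave -0.96 (SE 0.43, adjusted p = 0.359), whereas E1 array 1 by itself gave 0.07.

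The other mannosidases did not pass and their lines overlapped. MAN2A1 and MAN2A2, the Golgi mannosidases II that act after MGAT1, both stood at 0.03 (SE 0.22 and 0.20). The lysosomal MAN2B1 stood at -0.08 (SE 0.30) and MAN2B2 at 0.35 (SE 0.29), and with E1 array 1 alone they stood at 0.55 and -0.08. The cytosolic MAN2C1 stood at -0.46 (SE 0.26), or 0.11 when E1 array 1 was the only E1 array. The sign of MAN2B1 also turned under quantile normalization (0.18) and after subtraction of array medians (0.07).

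**Figure D2:**
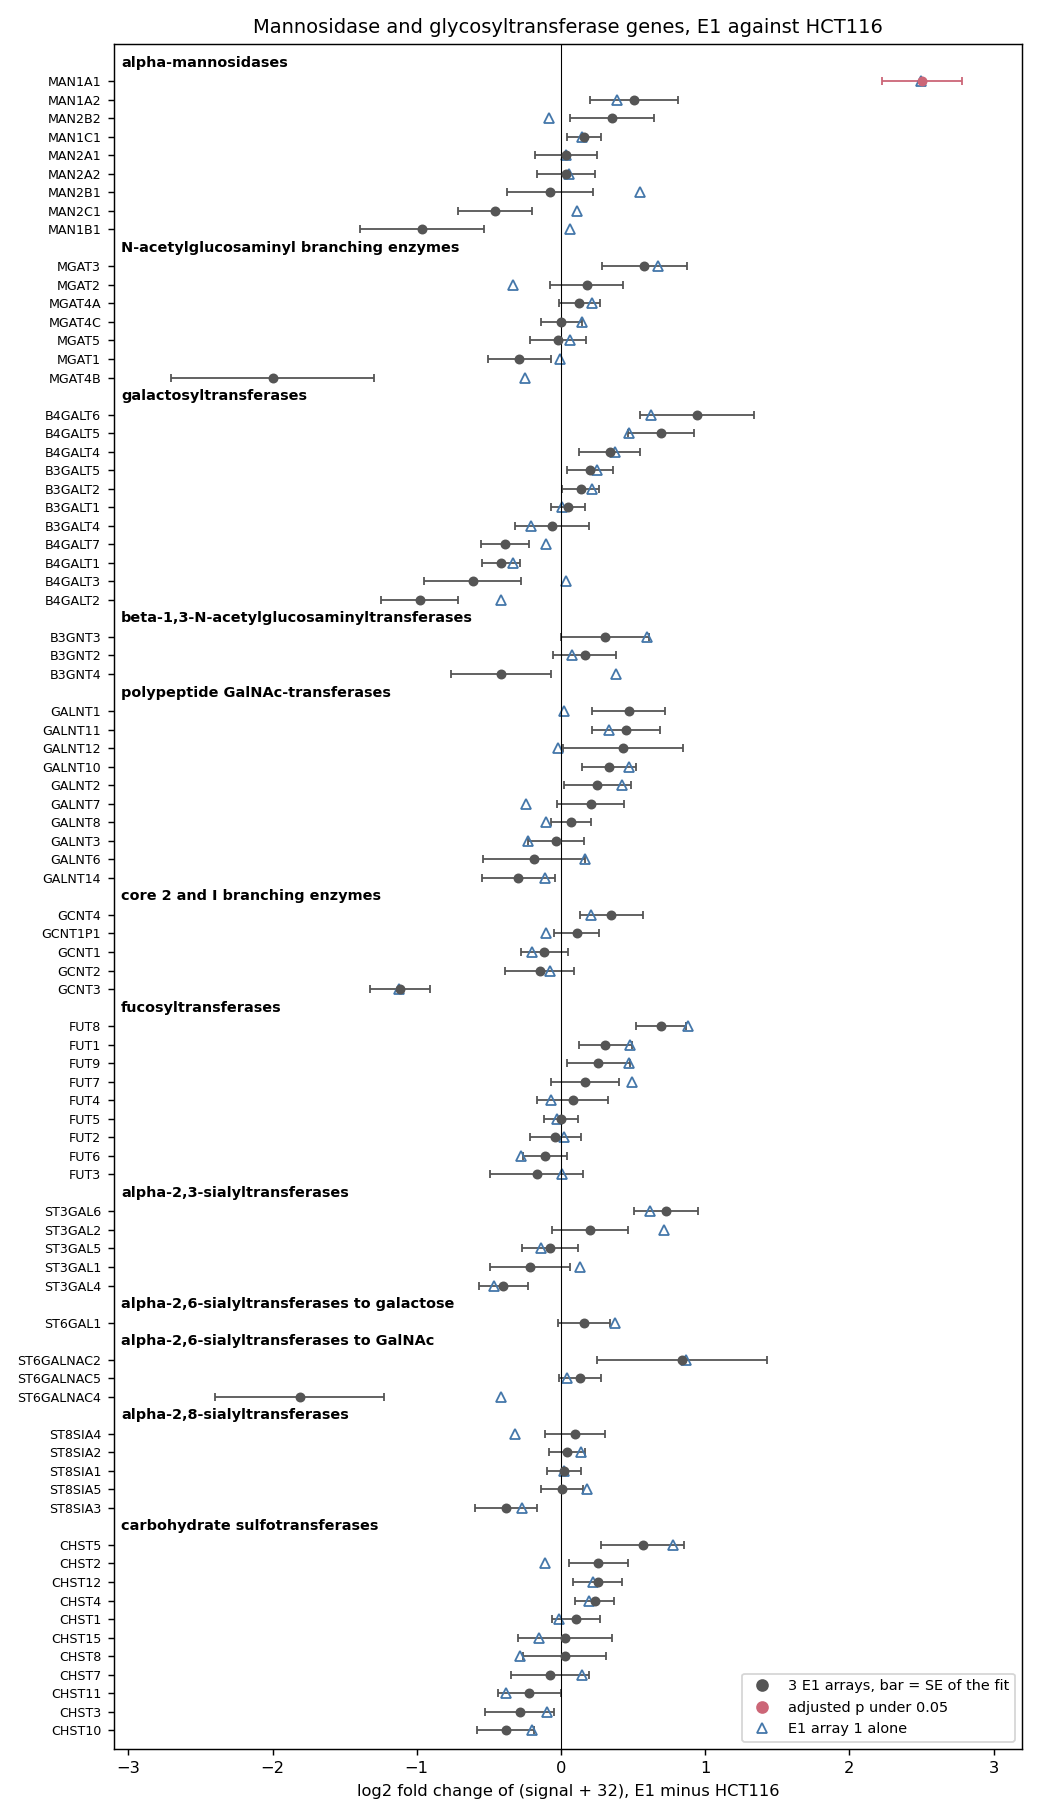
Log2 fold change of (signal + 32), E1 minus HCT116 (x axis), for each of the 79 genes (y axis) grouped by the reaction of the enzyme. Filled circles with SE bars use all 6 arrays, in red for an adjusted p under 0.05, and open triangles use E1 array 1 alone. MAN1A1 is the red point at 2.50, with its triangle on it, whereas the circles of MGAT4B and ST6GALNAC4 at -2.0 and -1.81 lie far from their triangles at -0.25 and -0.42.

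Of the 7 MGAT genes, 0 passed. MGAT4B, which adds an antenna on the branch started by MGAT1, read 467, 321 and 375 in HCT116 and 317, 27.8 and 21.6 in E1. E1 array 1 was just below the lowest HCT116 array, and E1 arrays 2 and 3 were far below it. The log2 fold change was -2.0 (SE 0.70, adjusted p = 0.284), made up of -0.25 for E1 array 1 and -2.87 for E1 arrays 2 and 3. MGAT5, the branching enzyme long studied in cancer metastasis, read 383, 265 and 330 in HCT116 and 339, 364 and 258 in E1. In that probe set the lines spanned nearly the same range. A much dimmer MGAT5 probe set read 29.7, 23.6 and 28.3 against 12.4, 14.3 and 5.94, without overlap (-0.47, SE 0.13, adjusted p = 0.173 over probe sets; -0.41 with E1 array 1 alone). MGAT2, which starts the second arm of a complex glycan, read 384, 294 and 392 against 275, 536 and 445, with E1 arrays on both sides of HCT116. MGAT3, which adds the bisecting residue, overlapped, with averages of 31.1 ± 21.5 (SD, n = 3) for HCT116 and of 60.0 ± 19.7 (SD, n = 3) for E1 (0.58, SE 0.29, adjusted p = 0.418). Its dimmer probe set was higher on every E1 array (0.27, SE 0.15), but did not exceed 29.7, too dim for that order to be read. MGAT1, MGAT4A and MGAT4C overlapped, and MGAT4C did not exceed 10.3 on any array.

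The 11 galactosyltransferases held 4 of the 10 members with an unadjusted p under 0.05, 2 higher and 2 lower in E1, and 0 passed over all genes. That threshold was met by 5.29% of all genes higher and 9.7% lower. B4GALT5, which makes lactosylceramide, the base of most glycosphingolipids, read 1048, 801 and 773 in HCT116 and 1213, 1226 and 1925 in E1. All E1 arrays were higher (0.69, SE 0.23, adjusted p = 0.269; 0.47 with E1 array 1 alone). A second B4GALT5 probe set did not show this, reading 1310, 991 and 1129 against 1530, 778 and 821 (-0.19, SE 0.28), and the mean of both gave 0.25. B4GALT6, the other lactosylceramide synthase, read 54.3, 46.4 and 25.6 in HCT116 and 80.8, 62.8 and 228 in E1, all higher but spread widely (0.94, SE 0.39, adjusted p = 0.333; 0.63 with E1 array 1 alone). Its dimmer probe set read 35.2, 9.31 and 29.2 against 19.7, 32.4 and 67.4 and overlapped (0.32, SE 0.30; -0.10 with E1 array 1 alone).

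Galactosyltransferases lower in E1 included the main enzyme for N-glycan antennae. B4GALT1 read 208, 199 and 193 in HCT116 and 152, 127 and 148 in E1, a small difference without overlap (-0.41, SE 0.13, adjusted p = 0.256; -0.33 with E1 array 1 alone). Its 3 other probe sets stood at -1.40, -0.83 and -0.11. The first of these read 59.3, 77.7 and 68.6 in HCT116 and 2.48, 14.3 and 2.30 in E1, and was called in the fit over single probe sets (SE 0.17, adjusted p = 0.0282), where 0.624% of all probe sets were called lower. That probe set gave -1.54 with E1 array 1 alone, and the mean of the 4 probe sets gave -0.69 (adjusted p = 0.0854 over genes). B4GALT2 read 337, 249 and 292 in HCT116 and 210, 112 and 94.8 in E1. It was lower on every E1 array, more so on arrays 2 and 3 (-0.98, SE 0.27, adjusted p = 0.215; -0.42 with E1 array 1 alone). B4GALT7, which places the first galactose of the glycosaminoglycan linker, read 88.5, 93.1 and 80.6 against 79.3, 47.8 and 53.1. E1 array 1 was just below HCT116 (-0.39, SE 0.17, adjusted p = 0.342, or -0.10 with E1 array 1 alone). The other B4GALT7 probe set stood at -1.10 (SE 0.38, adjusted p = 0.241 over probe sets), but at -0.21 with E1 array 1 alone. B4GALT3 stood at -0.61 (SE 0.34), or 0.04 when only E1 array 1 was used. In the probe sets that stood for them, B3GALT1, B3GALT2, B3GALT4, B3GALT5 and B4GALT4 all overlapped. B3GALT5 makes type 1 chains in the gastrointestinal tract. A second B3GALT4 probe set read 8.36, 10.45 and 8.87 against 10.54, 32.9 and 26.8 (0.40, SE 0.18; 0.05 with E1 array 1 alone). These signals are too dim for the order of the arrays to be read. No B3GALT array exceeded 38.7.

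Over the 33 genes with several probe sets, 34 of the 48 other probe sets had the sign of the one that stood for the gene and 14 the opposite sign. Their arrays did not overlap for 8 higher and 9 lower in E1, and 2 were called. Over all probe sets 0.247% were called higher and 0.624% lower. Arrays without overlap were not counted over all probe sets. With 1 probe set per gene they made up 8.18% higher and 10.7% lower of all genes.

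**Figure D3:**
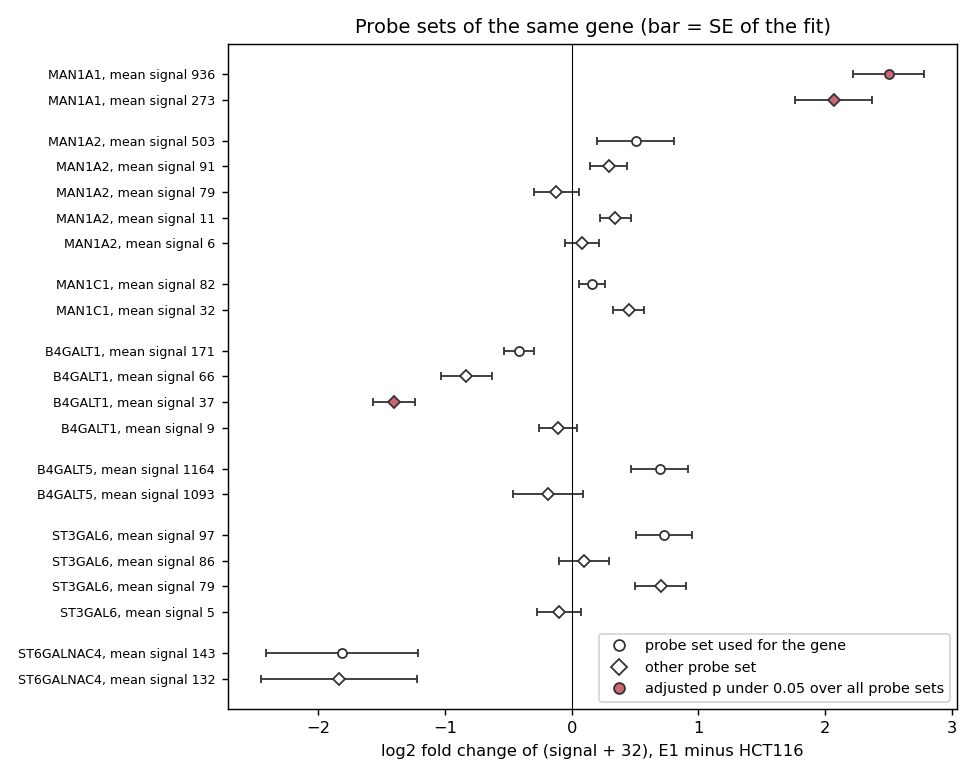
Log2 fold change with SE (x axis, E1 minus HCT116) for each probe set of 7 genes with several (y axis, with the mean signal over 6 arrays). Circles are the probe sets that stand for the gene, diamonds the others, and red marks an adjusted p under 0.05 over all probe sets. Both MAN1A1 probe sets are red at 2.50 and 2.07, 1 dim B4GALT1 probe set is red at -1.40, and the B4GALT5 probe sets lie on opposite sides of 0.

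**Figure D4:**
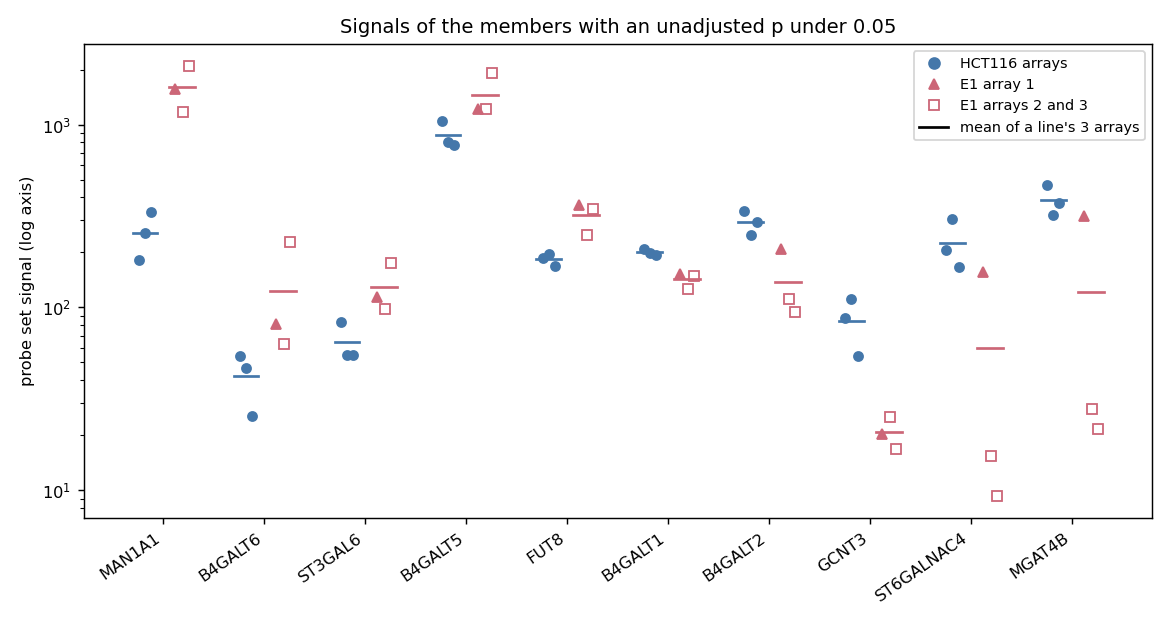
Probe set signal on a log axis for the 10 members with an unadjusted p under 0.05, ordered by log2 fold change. Blue circles are HCT116 arrays, filled red triangles E1 array 1, open red squares E1 arrays 2 and 3, and lines the means of 3 arrays. In MAN1A1 and GCNT3 the triangle lies with the squares, whereas in MGAT4B and ST6GALNAC4 it lies near the HCT116 circles.

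None of the 3 B3GNT genes passed in limma, at an unadjusted p under 0.05 either. B3GNT2, the chief enzyme of poly-N-acetyllactosamine chains, read 284, 256 and 219 in HCT116 and 267, 223 and 390 in E1, with overlap. B3GNT3 averaged 55.1 ± 32.03 (SD, n = 3) and 72.0 ± 20.5 (SD, n = 3). B3GNT4 read 122, 91.2 and 109 against 148, 39.8 and 54.8, so that E1 array 1 was the highest of all and E1 arrays 2 and 3 the lowest (-0.42, SE 0.35, adjusted p = 0.641; 0.38 with E1 array 1 alone).

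In the probe sets that stood for them, the 10 genes of the enzymes that begin O-glycans, the GALNT genes, all overlapped and 0 had an unadjusted p under 0.05, with log2 fold changes from -0.295 to 0.47 and a median of 0.23. GALNT1, a widely expressed initiating enzyme, read 526, 357 and 427 in HCT116 and 439, 643 and 801 in E1 (0.47, SE 0.25, adjusted p = 0.437; 0.02 with E1 array 1 alone). GALNT2 read 337, 404 and 222 against 431, 390 and 321, and GALNT11 162, 217 and 132.6 against 219, 194 and 326. GALNT12, an enzyme of the digestive tract, read 264, 293 and 158 against 227, 229 and 633. Its highest E1 value came from array 3 alone. GALNT3, GALNT6, GALNT7, GALNT8, GALNT10 and GALNT14 overlapped as well. Dimmer probe sets of GALNT2 and GALNT10 went the other way. That of GALNT2 read 53.4, 38.6 and 50.9 in HCT116 and 29.3, 10.6 and 15.3 in E1 (-0.67, SE 0.18, adjusted p = 0.160 over probe sets). It stood at -0.37 with E1 array 1 alone. The brighter GALNT2 probe set stood at 0.25, or 0.43 with E1 array 1 alone. That of GALNT10 read 113, 88.8 and 100.2 in HCT116 and 88.4, 43.6 and 55.3 in E1 (-0.52, SE 0.20, adjusted p = 0.275 over probe sets). It stood at -0.14 with E1 array 1 alone, which lay just under the lowest HCT116 array. The brighter GALNT10 probe set stood at 0.33, or 0.47 with E1 array 1 alone.

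Of the 5 GCNT genes, 0 passed, and GCNT3 was the member closest to a call among those lower in E1. GCNT3 read 87.5, 111 and 54.4 in HCT116 and 20.3, 25.2 and 16.7 in E1. All E1 arrays were below all HCT116 arrays, and the 3 E1 values lay close together. The means were 84.4 ± 28.6 (SD, n = 3) and 20.7 ± 4.24 (SD, n = 3). The lines differed by -1.11 (SE 0.21, adjusted p = 0.122; -1.12 with E1 array 1 alone). Because of the offset this value depends on the scale, and with an offset of 1 it was -1.93 (adjusted p = 0.0937). GCNT1, the widely expressed core 2 enzyme, read 73.2, 46.1 and 70.3 against 50.04, 59.7 and 55.9 and overlapped. GCNT2, the I-branching enzyme, GCNT4 and GCNT1P1 overlapped too and did not exceed 34.8 on any array.

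Of the 9 fucosyltransferases, 0 passed. FUT8, the single enzyme that adds the core fucose of N-glycans, read 187, 196 and 169 in HCT116 and 364, 249 and 347 in E1. Every E1 array was higher, and the means were 184 ± 13.7 (SD, n = 3) and 319.9 ± 61.9 (SD, n = 3). The log2 fold change was 0.69 (SE 0.17, adjusted p = 0.188), and 0.88 with E1 array 1 alone. FUT1, which makes the H antigen, read 138, 161 and 103 against 197, 154 and 165 and overlapped (0.31, SE 0.18, adjusted p = 0.479). FUT6, an antennary fucosyltransferase, read 149, 197 and 176 against 137, 171 and 167. That probe set ends in _x_at, which marks probes that may match other sequences, and FUT3, FUT5 and FUT6 are close relatives, so their signals are uncertain as to gene. A second FUT3 probe set of this type averaged 47.9 ± 3.67 (SD, n = 3) for HCT116 but 12.8 ± 7.23 (SD, n = 3) for E1 (-0.85, SE 0.16, adjusted p = 0.0831 over probe sets), whereas the one that stood for FUT3 overlapped. FUT2, the secretor enzyme, and FUT4, FUT5, FUT7 and FUT9 overlapped.

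The sialyltransferases that cap glycans gave 2 of 14 genes with an unadjusted p under 0.05, 1 in each direction, and 0 called over all genes. The shares of all genes at that threshold were 5.29% higher and 9.7% lower. ST3GAL6, which caps N-acetyllactosamine chains, read 83.6, 54.7 and 54.8 in HCT116 and 115, 97.9 and 176 in E1. All E1 arrays were higher (0.73, SE 0.22, adjusted p = 0.250; 0.62 with E1 array 1 alone). Of its 3 other probe sets, 1 stood at 0.70, 1 at 0.10 and a very dim one at -0.10, and with _x_at and _s_at probe sets dropped the gene stood at 0.10. ST3GAL4, which acts on similar chains, read 59.6, 53.1 and 33.3 against 25.8, 31.3 and 28.7. It was lower on every E1 array (-0.40, SE 0.17, adjusted p = 0.334; -0.47 with E1 array 1 alone). ST3GAL5, the GM3 ganglioside synthase, read 161, 129 and 161 against 133.1, 111 and 185 and overlapped, as did ST3GAL1 and ST3GAL2, which did not exceed 38.6.

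ST6GALNAC4, which adds sialic acid to sialylated core 1 O-glycans, read 207, 307 and 165 in HCT116 and 156, 15.4 and 9.26 in E1. E1 array 1 lay just under the lowest HCT116 value and E1 arrays 2 and 3 far under it. The 6 arrays gave -1.81 (SE 0.59, adjusted p = 0.262) and E1 array 1 by itself -0.42, and the other probe set gave -1.84 and -0.36. ST6GALNAC2, which can cap the first O-linked sugar, read 25.5, 154 and 64.8 against 152, 59.7 and 318, and the spread within each line exceeded the difference (0.84, SE 0.59, adjusted p = 0.561). ST6GALNAC5 overlapped. ST6GAL1, the main enzyme for terminal sialic acid on N-glycans and often raised in colon cancer, read 184, 156 and 167 against 228, 209 and 147, with E1 array 3 below HCT116. The 5 ST8SIA genes, which build di- and polysialic acid, did not exceed 35.9 on any array and overlapped in the probe sets that stood for them. A second ST8SIA3 probe set stood at 0.26 (SE 0.13), whereas the one that stood for the gene was at -0.38. The second was higher on every E1 array but did not exceed 20.5, too dim for that order to be read.

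The 11 carbohydrate sulfotransferases gave 0 genes with an unadjusted p under 0.05 in limma. CHST12, a chondroitin sulfotransferase, read 150, 152 and 101 in HCT116 and 160, 168 and 165 in E1, and CHST4, which sulfates N-acetylglucosamine in mucin-type glycans, 81.5, 68.1 and 60.3 against 84.2, 92.0 and 86.3. Both were higher on every E1 array by a small margin, at 0.25 (SE 0.17) and 0.23 (SE 0.14). CHST10, which makes the HNK-1 epitope, read 127, 121 and 95.1 against 94.4, 55.4 and 93.5, a margin of less than 1 signal unit between the nearest arrays (-0.38, SE 0.20, adjusted p = 0.418). CHST5 stood at 0.57 (SE 0.29) and overlapped. CHST15, which acts on chondroitin sulfate, read 366, 481 and 319 against 342, 265 and 650. CHST1, CHST2, CHST3, CHST7, CHST8 and CHST11 overlapped.

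E1 array 1, whose control ratios were close to those of HCT116, was also compared without E1 arrays 2 and 3, taking the spread among HCT116 arrays to hold for the lone E1 array. It called 0 members in limma, where 0.00836% of all genes were called in each direction, and at an unadjusted p under 0.05 it gave 5 members higher and 1 lower of 79, against 4.44% and 7.05% of all genes. E1 arrays 2 and 3 against HCT116 called 1 member higher, MAN1A1, and 7 lower, B3GNT4, B4GALT2, GCNT3, MAN1B1, MAN2C1, MGAT4B and ST6GALNAC4. That was 1 and 7 of 79 genes, against 1.64% and 7.33% of all genes. For 5 members E1 arrays 2 and 3 were below every HCT116 array while E1 array 1 was not, 6.33% against 10.7% of all genes. These were B3GNT4, B4GALT3, MAN1B1, MAN2B1 and MAN2C1. For 8 members the reverse held, 10.1% against 11.4% of all genes, among them GALNT1, GALNT7 and MGAT2. Whether RNA quality differed between the arrays, and its part in these values, was not tested. Of the 7 called lower with E1 arrays 2 and 3, GCNT3 stood at -1.11 there and at -1.12 with E1 array 1 alone.

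The other steps of glycosylation were followed in 8 lists. Of their 180 measured genes 1 was called: the Golgi matrix protein GM130, GOLGA2, fell from 172 ± 16.8 (SD, n = 3) to 66.0 ± 5.73 (SD, n = 3), by 1.06 on the log2 scale (SE 0.13, adjusted p = 0.0418; -0.98 with E1 array 1 alone). GOLGA2 was called in 0 of 9 other settings that kept all arrays, with adjusted p from 0.0511 to 0.262. Of the 34 genes of Golgi structure and trafficking, 1 had an unadjusted p under 0.05 and a higher signal in E1, 5 a lower one, and the median was 0.04. Among all genes 5.29% were higher and 9.7% lower at that threshold. GORASP2, a Golgi stacking protein, stood at -0.77 (SE 0.21; -0.38 with E1 array 1 alone), and ATP6V0A2, a proton pump subunit, at -0.71 (SE 0.23; -1.14). The direction of ATP6V0A2 turned with the probe set, since the mean of its probe sets gave -0.12 and dropping _x_at and _s_at probe sets gave 0.29.

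Upstream of the Golgi, counts at an unadjusted p under 0.05 stand beside 9.7% lower and 5.29% higher of all genes, a balance that turned over with scaling. Of 22 genes that build the N-glycan precursor or transfer it to protein, 5 were lower and 0 higher, with a median of -0.14. MPDU1, needed for use of dolichol-linked sugars, stood at -2.98 (SE 0.65, adjusted p = 0.146) and at -1.36 with E1 array 1 alone. The mannosyltransferase ALG12 stood at -1.06 (SE 0.25; -0.98) and DPM2, a subunit of dolichol-phosphate-mannose synthase, at -1.45 (SE 0.40; -0.52). Of 19 genes of endoplasmic reticulum glucosidases and quality control, 4 were lower and 0 higher, with a median of -0.13. EDEM3, a mannosidase-like degradation factor, stood at -0.73 (SE 0.19; -0.95), the folding sensor UGGT1 at -0.70 (SE 0.19; -0.47) and the glucosidase subunit PRKCSH at -0.63 (SE 0.21; -0.18). The second value in each case is that of E1 array 1 alone.

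Sugar donors and their transporters gave both directions. Counts at an unadjusted p under 0.05 again stand beside 5.29% higher and 9.7% lower of all genes. Of 19 genes of nucleotide sugar and sulfate donor synthesis, an unadjusted p under 0.05 was found for 2 higher in E1 and 2 lower, with a median of -0.01. GNE, the first enzyme of sialic acid synthesis, averaged 97.5 ± 23.5 (SD, n = 3) for HCT116 but 303 ± 192 (SD, n = 3) for E1 without overlap (1.24, SE 0.39, adjusted p = 0.252; 0.95 with E1 array 1 alone). CMAS, which activates sialic acid, stood at 0.57 (SE 0.22; 0.25) and the phosphomannomutase PMM1 at -0.76 (SE 0.29; -0.12). Of 8 transporters, at the same threshold, 1 was higher, SLC35A5 at 0.70 (SE 0.24; 0.39), and 2 were lower. These were SLC35A3, which carries UDP-N-acetylglucosamine, at -0.70 (SE 0.23; -1.15) and SLC35C1, the GDP-fucose transporter, at -0.48 (SE 0.19; -0.30).

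Of 47 other glycosyltransferases and glycan-modifying enzymes, an unadjusted p under 0.05 was found for 3 higher in E1 and 2 lower, with a median of 0.02. Here and in the next lists the shares of all genes were 5.29% higher and 9.7% lower. UGCG, which makes glucosylceramide, the substrate of B4GALT5 and B4GALT6, averaged 259 ± 21.7 (SD, n = 3) for HCT116 but 103 ± 32.7 (SD, n = 3) for E1 without overlap (-1.14, SE 0.21, adjusted p = 0.122; -0.93 with E1 array 1 alone). The heparan sulfate enzymes HS3ST1 and HS6ST1 stood at 1.32 (SE 0.32; 1.15) and -0.84 (SE 0.20; -0.45). Of 13 lysosomal glycosidases and their partners, at the same threshold, 1 was higher, the fucosidase FUCA1 at 1.03 (SE 0.27; 0.80), and 3 were lower, led by CTSA at -1.32 (SE 0.31; -0.69), with the sialidase NEU1 at -0.45 (SE 0.14; -0.28). Of 18 galectins and other lectins 2 were likewise higher and 2 lower, among them CD22 at 0.51 (SE 0.16; 0.59), LGALS8 at -0.65 (SE 0.21; -0.91) and SIGLEC5 at 0.45 (SE 0.16; 0.20).

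**Figure D5:**
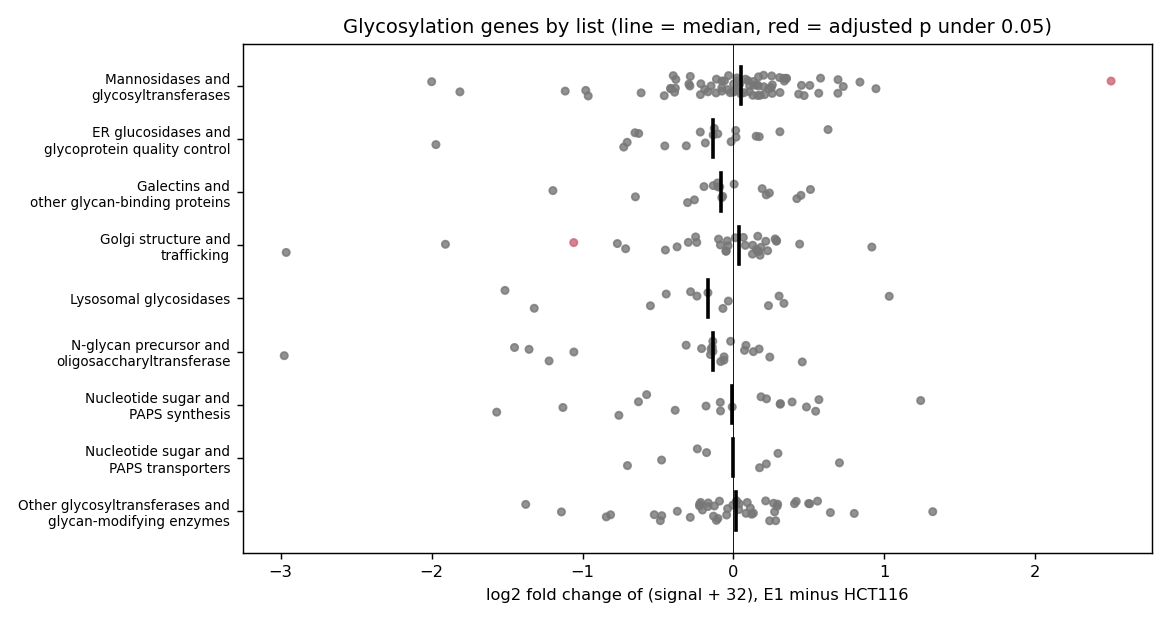
Log2 fold change (x axis, E1 minus HCT116) of each gene in the mannosidase and glycosyltransferase set and in 8 other lists of glycosylation genes (y axis, points spread vertically for legibility). Black lines are medians and red points have an adjusted p under 0.05. MAN1A1 at 2.50 and GOLGA2 at -1.06 are the 2 red points, and all medians lie between -0.17 and 0.05.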

How the data were processed

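The deposited table holds 1 linear signal intensity per probe set for each of 6 arrays (22283 probe sets). The authors' summarization, background correction and scaling were not given in any source used here. RNA was extracted with Trizol and prepared for Affymetrix arrays, per the labels. Values were transformed as log2(intensity + 32) without further scaling, and the 68 control probe sets were not tested. Probe sets with 1 symbol in the platform annotation were used, leaving out 1043 with several (2 of them name a member) and 2107 with none. Where a gene had several, the one with the highest mean log2 value stood for it. All symbols of members were found in a RefSeq table of GRCh38.p14.

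E1 was compared with HCT116 using limma 3.58.1 in R 4.3.3 (lmFit, eBayes), two-sided, with Benjamini-Hochberg adjustment over all genes. The fit was tested on simulated data. Number of arrays limits the precision of every value, and signals below about 50, where 19 members lay on all arrays, are read without order. Leaving out the lowest 40% of genes kept 48 members.

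Named were members called or at an unadjusted p under 0.05, the 3 brightest of each enzyme group, others for their range, and up to 3 genes per other list plus called ones. Members and lists were chosen with earlier results of these data known, and no set test was run. Alternatives covered scaling, offsets of 1 and 100, a filter on dim genes, the choice of probe set, the variance model, a replicate block and each array left out.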

Additional observations from a re-analysis of the deposited data

How the results depend on the processing

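The number of members called higher in E1, 1 with the main settings, was 0 with an offset of 100, with _x_at and _s_at probe sets dropped, with E1 array 1 alone, at an adjusted p under 0.01, and with the replicate number as a block, and it ranged from 0 to 1 when 1 array was left out. The number called lower, 0, ranged from 0 to 7 when 1 array was left out (7 without E1 array 1) and was 1 in the fit over single probe sets, B4GALT1. The replicate numbers did not pair the arrays: deviations of same-numbered arrays correlated across genes at -0.06, -0.36 and -0.12, and the block left 2 of all genes called instead of 50. With adjusted p under 0.05 over all genes, 1073 genes were called without E1 array 1, and 2 to 17 when another array was left out. The cause was not tested.

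Log2 fold changes of 55 genes were followed over the settings, and 46 of them kept their sign in every setting that included them. The 55 were chosen genes that included non-members, so this share does not describe the members as a set. GALNT2 and GALNT10 were not among the 55. Their values also turned, reaching -0.21 and -0.09 at the lowest. Many other members turned too, such as MGAT2 (-0.33 to 0.43), GALNT7 (-0.24 to 0.43), ST3GAL1 (-0.64 to 0.13) and ST8SIA3 (-1.10 to 0.26). Others, such as MAN1A1 (2.25 to 2.71) and GCNT3 (-1.93 to -0.60), did not. Among the 55, with E1 array 1 alone the sign turned for B3GNT4 (0.38), B4GALT3 (0.038), MAN1B1 (0.066), MAN2B1 (0.55), MAN2B2 (-0.084) and MAN2C1 (0.11). MAN2B1 also turned under quantile normalization (0.18), with array medians subtracted (0.073) and without E1 array 2, its range over arrays left out being -0.39 to 0.21. ATP6V0A2 turned to 0.29 with _x_at and _s_at probe sets dropped. Over arrays left out MAN2A1 ranged from -0.19 to 0.16 and MAN2A2 from -0.12 to 0.22. Signals near background limit dim members, such as the ST8SIA genes, FUT5, MGAT4C and GCNT2.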

Other observations

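The core fucosyltransferase FUT8 stood at 0.69 and the GDP-fucose transporter SLC35C1 at -0.48, each without overlap of the lines and neither called. MAN1A1 and GCNT3 were the members with an absolute log2 fold change of at least 1 whose value with E1 array 1 alone was also at least 1 in size, at 2.50 and -1.12, whereas MGAT4B and ST6GALNAC4 were under it, at -0.25 and -0.42.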
